A study of Mus musculus with 12 samples.

Results

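The tissue inhibitors of metalloproteinases, *Timp1*, *Timp2*, *Timp3* and *Timp4*, and *Reck*, a membrane-anchored inhibitor of the same enzymes, were followed in basal epidermal cells around a healing wound in mouse tail skin. They were chosen by gene symbol, using the probe sets of the array that are annotated to a single gene, and 4 of the 5 genes had at least 1 such probe set, out of 17097 genes measured in all. *Timp4* was not analysed here. *Timp1* and *Reck* were each read by 1 probe set, *Timp3* by 4 and *Timp2* by 5, which makes 11 probe sets. Where a gene had several, the one with the highest mean over the 12 arrays leads the description and the others are given beside it.

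Adult CD1 mice were wounded in the tail skin with a 3 mm punch, and the skin was taken 4 days (D4) or 7 days (D7) later. A 4 mm punch enriched for the leading edge (LE), the sheet of cells that migrates into the wound. A 6 mm punch enriched for the proliferative hub behind it. Another piece of tail skin, taken far from the wound, served as control. From each region, 300 basal cells carrying α6-integrin and lacking CD34, that is, basal cells of the interfollicular epidermis and the infundibulum, were sorted, and their amplified cDNA was hybridised to an expression array. The 6 groups (LE, hub and control at D4 and at D7) hold 2 arrays each, and each array is a pool of 5 mice, for which the labels name no transgene or drug. The replicates are labelled as biological, and no source used here says whether the 3 regions of 1 number came from the same mice.

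In background terms, a TIMP is a small secreted protein that plugs the zinc-containing active site of matrix metalloproteinases (MMPs), the enzymes that cut collagen, laminin and other matrix proteins. TIMP1 and TIMP2 diffuse, and TIMP2 together with the membrane protease MMP14 also takes part in activating pro-MMP2, while TIMP3 is held by the extracellular matrix and inhibits, besides MMPs, sheddases of the ADAM family and aggrecanases of the ADAMTS family. Migrating keratinocytes at a wound edge are known for making MMPs, which free them from their matrix. *Timp1*, *Timp3* and *Timp4* each lie within the span of a synapsin gene (*Syn1*, *Syn3* and *Syn2* respectively) in the mouse annotation.

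The promoters of *Timp1* and *Timp3* are shown because these were the inhibitors whose levels passed the test described below, in opposite directions. Each is the stretch from 250 bases before to 50 bases from the annotated start of the gene, 5′ to 3′ on the strand of the gene, from RefSeq on GRCm38.p6, at chrX:20869916-20870215 (plus strand) for *Timp1* and chr10:86300162-86300461 (plus strand) for *Timp3*. Capitals mark matches, on either strand, to the GC box GGGCGG, to TATAA and to TGAGTAA, a variant of the AP-1 site.
Timp1: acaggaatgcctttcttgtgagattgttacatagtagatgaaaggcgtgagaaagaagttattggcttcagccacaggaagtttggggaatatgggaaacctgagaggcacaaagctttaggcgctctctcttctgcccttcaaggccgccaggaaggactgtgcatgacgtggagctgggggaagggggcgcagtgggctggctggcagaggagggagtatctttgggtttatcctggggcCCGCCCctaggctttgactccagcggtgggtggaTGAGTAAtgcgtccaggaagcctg
Timp3: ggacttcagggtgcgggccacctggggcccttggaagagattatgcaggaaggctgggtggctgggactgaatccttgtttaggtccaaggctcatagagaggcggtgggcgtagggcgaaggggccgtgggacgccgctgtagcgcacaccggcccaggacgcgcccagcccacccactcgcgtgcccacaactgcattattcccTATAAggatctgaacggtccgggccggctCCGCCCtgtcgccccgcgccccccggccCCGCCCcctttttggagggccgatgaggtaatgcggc
In *Timp1* the capitals are a GC box on the reverse strand (CCGCCC) at position -8 and TGAGTAA at position 27, and in *Timp3* they are TATAA at position -44 and GC boxes on the reverse strand at positions -15 and 14, counted from the start of the gene. No searched letters overlapped. Of 32851 mouse promoters of the same length, 35.7% hold GGGCGG, 24.9% TATAA and 2.68% TGAGTAA. The AP-1 consensus TGANTCA, held by 7.81% of all promoters, is in none of the 5 promoters of the family. These matches describe letters and were not tested against the expression data.

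Levels are log2 values from RMA, a method that corrects background, normalises and summarises the probes of a set, so a difference of 1 is a doubling. The medians of the D4 arrays lay between 5.40 and 5.47 and those of the D7 arrays between 4.25 and 4.28, so regions were compared within a day, and the level of a probe set was never set against that of another. The arrays of a group correlated at 0.988 to 0.994 over the leading probe sets of the 17097 genes. A gene is called where its adjusted p in limma, over all 17097 genes, is under 0.05. In LE against control at D4, 14.1% of all genes were called (1419 higher and 997 lower in LE) and at D7 14.6% (1581 higher and 918 lower). In hub against control, 0.328% were called at D4 and 0.76% at D7, and in LE against hub 4.76% at D4 and 2.73% at D7. Groups of 2 arrays keep the precision low.

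Of the 4 inhibitors measured, 2 were called in LE against control at D4 and 2 at D7, in both cases *Timp1* higher and *Timp3* lower. The median difference of the 4 was -0.39 at D4 and -0.32 at D7 on the log2 scale, against 0.03 and 0.02 over all genes. In hub against control, 0 of 4 were called by limma at either day, and at an unadjusted p under 0.05, met by 11% of all genes at D4 and 12.7% at D7, it was 1 (*Timp3*, lower) at each day. In LE against hub, 1 of 4 (*Timp1*) was called at D4 and 0 at D7. *Timp1* (higher) and *Timp3* (lower) had an unadjusted p under 0.05 there on both days, as did 16.3% of all genes at D4 and 15.8% at D7.

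**Figure D1:**
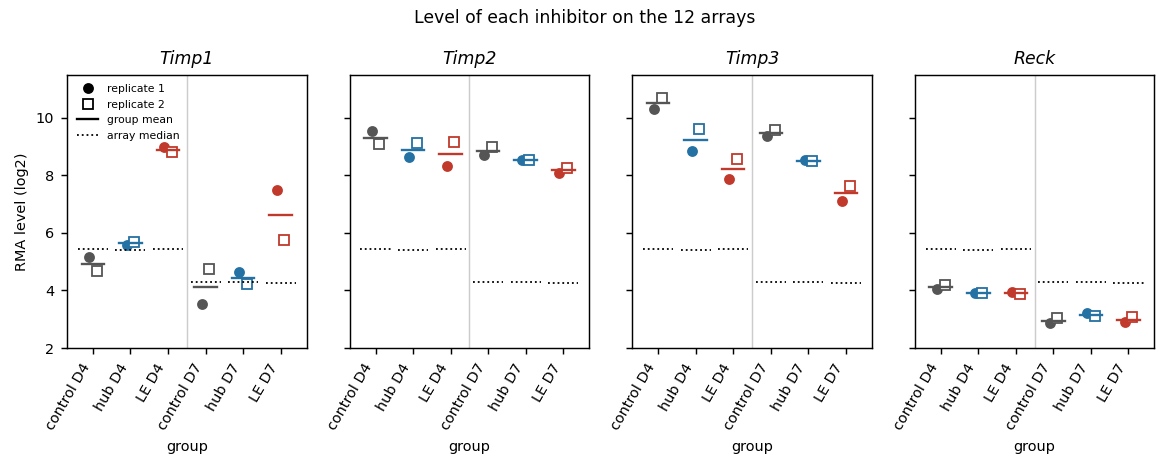
RMA level (log2, vertical axis) of the leading probe set of each inhibitor on the 12 arrays, by group, with replicate 1 filled, replicate 2 open, a bar at the group mean and a dotted line at the mean of the array medians of the group. Timp1 is high in the leading edge, from 8.81 to 8.98 at D4 and from 5.76 to 7.50 at D7. Timp3 steps down from control to hub to leading edge at both days, and Reck lies below the array median on all 12 arrays.

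*Timp3*, the matrix-bound inhibitor, was the member that fell at the leading edge. At D4 its level was 10.31 and 10.69 in the control replicates, 8.86 and 9.60 in the hub and 7.87 and 8.55 in LE. At D7 it was 9.37 and 9.57 in the control, 8.53 and 8.49 in the hub and 7.10 and 7.64 in LE. On each day the 3 regions did not overlap and stood in the same order, control above hub above LE. The group means at D4 were 10.50 ± 0.27 in control, 9.23 ± 0.52 in hub and 8.21 ± 0.49 in LE (SD, n = 2), and at D7 they were 9.47 ± 0.14, 8.51 ± 0.03 and 7.37 ± 0.38 in the same order.

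The difference of LE from control in *Timp3* was -2.29 ± 0.29 (SE) at D4 on the log2 scale, which is 4.90-fold lower (adjusted p = 0.00076), and -2.10 ± 0.29 at D7, which is 4.27-fold lower (adjusted p = 0.0015). Both calls held in each of the 12 fits that left out 1 array. Ranked among all 17097 genes by this difference, *Timp3* was the 42nd from the lowest at D4 and the 44th at D7. Hub and control differed by -1.27 ± 0.29 at D4 (95% interval from -1.92 to -0.63) and by -0.96 ± 0.29 at D7 (-1.61 to -0.31), which did not pass the test (adjusted p = 0.12 and 0.19), although these differences were the 16th and 59th from the lowest of all genes. By rank, the difference of LE from hub was the 181st from the lowest of all genes at D4 and the 110th at D7. LE and hub differed by -1.02 ± 0.29 at D4 and -1.14 ± 0.29 at D7, which did not pass either (adjusted p = 0.087 and 0.075). It passed at D4 without LE D4 replicate 2 (-1.36, adjusted p = 0.048) or hub D4 replicate 1 (-1.39, adjusted p = 0.046), and narrowly at D7 without either hub D4 array (-1.14, adjusted p = 0.0495), which only lends its spread to the D7 comparison. Whether neighbouring regions in the order of *Timp3* levels passed depended on the fit, as several alternatives, a replicate block among them, called these differences.

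The 4 probe sets of *Timp3* followed each other over the 12 arrays, with correlations of 0.967 to 0.994 relative to the mean of the day. Tested as single probe sets, where 13.1% of all 28898 were called in LE against control at D4 and 13.6% at D7, all 4 were called lower in LE at both days. Their differences ran from -2.96 to -2.29 at D4 and from -2.38 to -2.10 at D7. In hub against control at D4, where 0.277% of probe sets were called, 1 of the 4 was, with a difference of -1.87 ± 0.28 (adjusted p = 0.036), and at D7, where 0.516% were called, none of the 4 was. In LE against hub at D4 (4.33% called overall) 1 of the 4 was called at -1.43 ± 0.35 (adjusted p = 0.0495), and at D7 (2.26% overall) 2 were, at -1.22 ± 0.25 and -1.48 ± 0.28 (adjusted p = 0.039 and 0.029). The leading probe set of *Timp3* was not among those called in hub against control or in LE against hub.

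*Timp1*, a diffusible inhibitor also known for promoting the growth of cells, moved the other way. At D4 its level was 8.98 and 8.81 in the LE replicates, against 5.58 and 5.70 in the hub and 5.17 and 4.66 in the control. At D7 it was 7.50 and 5.76 in LE, 4.65 and 4.21 in the hub and 3.54 and 4.73 in the control. Every LE array was above every hub and control array of its day, while hub and control overlapped at D7. The group means at D4 were 8.89 ± 0.12 in LE, 5.64 ± 0.08 in hub and 4.92 ± 0.36 in control (SD, n = 2), and at D7 they were 6.63 ± 1.23, 4.43 ± 0.31 and 4.13 ± 0.84. On 4 of the 12 arrays its signal was below the median of the array, so the size of a fold against the control is poorly measured.

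*Timp1* was 3.98 ± 0.51 higher in LE than in control at D4 on the log2 scale, which is 15.8-fold (adjusted p = 0.00082), the 13th highest difference of all genes. At D7 it was 2.50 ± 0.51 higher, or 5.65-fold (adjusted p = 0.010), the 53rd highest. The D4 call held in each of the 12 fits without 1 array. The D7 call was lost without LE D7 replicate 1, where the difference was 1.63 (adjusted p = 0.062), and without control D7 replicate 1, where it was 1.90 (adjusted p = 0.077). Against the hub, *Timp1* was 3.26 ± 0.51 higher in LE at D4, or 9.55-fold (adjusted p = 0.0066), and this was lost narrowly without LE D4 replicate 1 (difference 3.17, adjusted p = 0.0501). At D7 LE and hub differed by 2.20 ± 0.51 (95% interval 1.07 to 3.34), just outside the threshold (adjusted p = 0.054), and without LE D7 replicate 2 the difference was 3.07 and passed (adjusted p = 0.022). Hub and control differed by 0.72 ± 0.51 at D4 and 0.29 ± 0.51 at D7, with 95% intervals from -0.42 to 1.86 and from -0.85 to 1.43 (adjusted p = 0.74 and 0.89).

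*Timp2*, which inhibits MMPs broadly and partners with MMP14, did not pass the test in any comparison. Its level at D4 was 8.31 and 9.16 in LE, 8.63 and 9.13 in the hub and 9.54 and 9.07 in the control, and at D7 8.08 and 8.27, 8.54 and 8.54, and 8.71 and 8.98. On this leading probe set the D4 regions overlapped, whereas at D7 both LE arrays lay below both hub arrays and these below both control arrays. The other probe sets did not keep LE below hub at D7. Their arrays overlapped, or the group mean was higher in LE (7.37 against 7.19, and 7.03 against 6.91). LE and control differed by -0.57 ± 0.27 at D4 (95% interval from -1.17 to 0.04, adjusted p = 0.23) and by -0.68 ± 0.27 at D7 (from -1.28 to -0.07, adjusted p = 0.14). Without LE D4 replicate 2, the array on which it was higher, the D4 difference was -0.99 and passed (adjusted p = 0.035). Hub and control differed by -0.43 and -0.30, and LE and hub by -0.14 and -0.37, at D4 and D7. The 5 probe sets of *Timp2* were less alike than those of *Timp3*, with correlations of 0.678 to 0.906 over the 12 arrays relative to the mean of the day, and 0 of 5 were called by limma in any of the 6 comparisons.

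*Reck*, whose product is anchored to the cell surface and restrains MMP2, MMP9 and MMP14, was dim. Its level was between 3.88 and 4.19 at D4 and between 2.88 and 3.21 at D7, below the median of the array on all 12 arrays. Its differences between regions ran from -0.21 to 0.20, with adjusted p from 0.28 to 0.98. At this signal the size of a difference is poorly measured, and the values do not show that *Reck* was equal between regions.

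**Figure D2:**
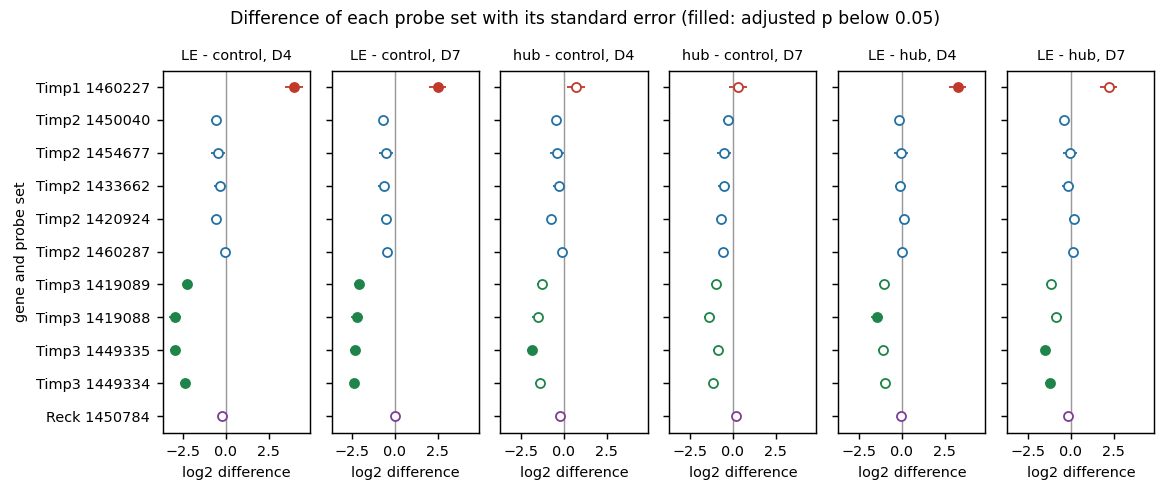
Difference between regions on the log2 scale (horizontal axis) with its standard error for the 11 probe sets of the 4 inhibitors (rows), in the 6 comparisons within a day (panels; LE is the leading edge). Filled points passed an adjusted p of 0.05 over all probe sets, and the 4 Timp3 probe sets are filled on the left in both comparisons of the leading edge with control.

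The study's methods chose genes by a change of over 2-fold in each replicate. Under that rule, which 3.82% of genes met in LE against control at D4 and 3.34% at D7, *Timp1* and *Timp3* were the members chosen on both days. In hub against control, met by 0.445% of genes at D4 and 0.509% at D7, *Timp3* was chosen at D4, where its differences between same-numbered arrays were -1.46 and -1.09, and no member at D7, where they were -0.84 and -1.08. In LE against hub, met by 1.78% and 1.16%, *Timp1* was chosen on both days. *Timp3* missed it there with differences of -0.99 and -1.04 at D4 and of -1.43 and -0.84 at D7. The study itself names *Timp3* as the gene that fell most in its LE signature. It defined that signature by LE against hub, and shows the fold changes of *Timp3* over control. In LE against hub here, *Timp3* was the 181st from the lowest of all genes at D4 and the 110th at D7. The study also refined its signature with cells sorted for α5-integrin, to keep out proliferative cells. The arrays of those cells are not among those used here.

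Whether a difference between regions changed from D4 to D7 was tested within the same fit. None of the 4 members passed in any of the 3 region comparisons, where 0.0292% (LE against control), 0% (hub against control) and 0.0175% (LE against hub) of all genes were called by limma. The largest change among the members was that of *Timp1* in LE against control, which changed by -1.48 ± 0.72 from D4 to D7 (95% interval of the change from -3.09 to 0.13, adjusted p = 0.67). For *Timp3* the change was 0.20 ± 0.41 (from -0.72 to 1.11). At an unadjusted p under 0.05, met by 4.56% of all genes in that comparison, only the change of *Reck* in hub against control (0.40 ± 0.15) passed, and *Reck* lay below the array median throughout.

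**Figure D3:**
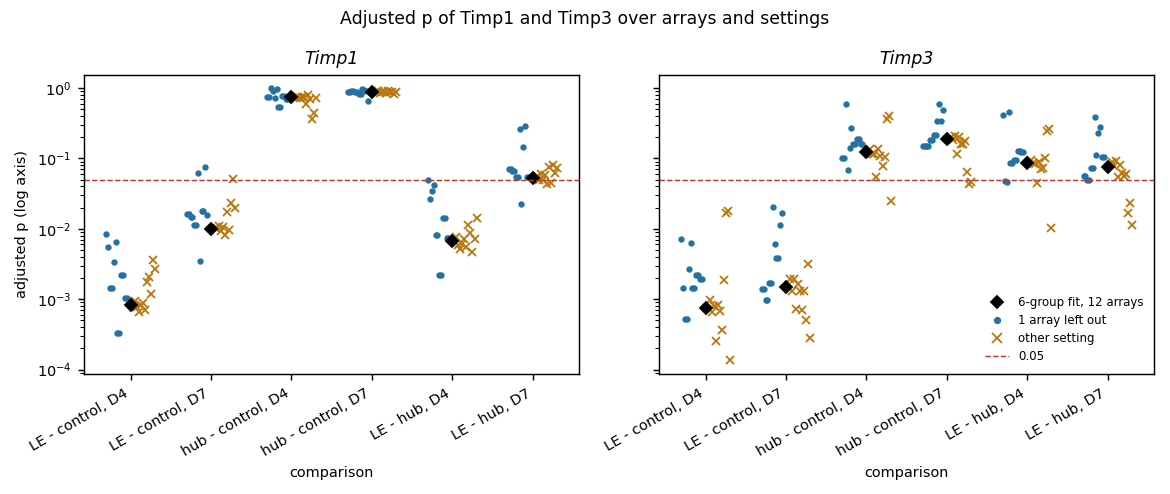
Adjusted p on a log axis (vertical) of Timp1 and Timp3 in the 6 comparisons (horizontal), with all 12 arrays (diamonds), with 1 array left out (dots) and under the other settings that give an adjusted p, the test against a 2-fold change apart (crosses); the dashed line is 0.05. All dots of Timp3 in the leading edge against control lie below the line, and 2 dots of Timp1 in the same comparison lie above it at D7.

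The inhibitors act on proteases, and the MMP genes were counted beside them. Of 23 MMP genes listed, 18 were measured. In LE against control at D4, 6 rose, 1 fell and 11 did not pass, with a median difference of 0.24 over the 18 against 0.03 over all genes, and at D7 4 rose, 1 fell and 13 did not pass, with a median of 0.07 against 0.02. The called genes were 38.9% of the list at D4 and 27.8% at D7, against 14.1% and 14.6% of all genes. *Mmp9*, a gelatinase that TIMP1 binds tightly also as a proenzyme, was at 11.73 and 11.17 in LE at D4 and 5.49 and 4.82 in control, a difference of 6.30 ± 0.93 (adjusted p = 0.0018), and at D7 at 10.38 and 9.60 against 4.44 and 3.67, a difference of 5.94 ± 0.93 (adjusted p = 0.0028). No LE array came near the control arrays of its day, and 2 control arrays were below the array median, so the size of the difference is poorly measured. In the hub at D4 its replicates stood far apart, at 9.64 and 5.88.

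The collagenase *Mmp13*, the stromelysin *Mmp10* and *Mmp1b* rose with *Mmp9* in LE. *Mmp13* differed from control by 4.82 ± 0.89 at D4 and 3.26 ± 0.89 at D7 (adjusted p = 0.0060 and 0.037), *Mmp10* by 3.58 ± 0.80 and 3.03 ± 0.80 (adjusted p = 0.015 and 0.032), and *Mmp1b* by 3.13 ± 0.22 and 0.98 ± 0.22 (adjusted p = 3.5e-05 and 0.017). *Mmp3*, another stromelysin, rose in LE at D4 (1.19 ± 0.26, adjusted p = 0.013) and fell in the hub at D7 (-2.01 ± 0.26, adjusted p = 0.011), being at 4.81 and 5.06 in the hub and 6.81 and 7.10 in control. Several of these calls rested on few arrays. At D4, *Mmp10* and *Mmp3* were no longer called without LE D4 replicate 1 (2.71 and 1.07) or control D4 replicate 2 (2.66 and 0.98). At D7, the calls of *Mmp13*, *Mmp10* and *Mmp1b* were lost without LE D7 replicate 1 (2.39, 2.42 and 0.57) and without either control D7 array (3.23 and 3.28 for *Mmp13*, 2.71 and 3.35 for *Mmp10*, 1.07 and 0.88 for *Mmp1b*), and those of *Mmp13* and *Mmp10* also without either hub D7 array (adjusted p = 0.058 and 0.051). *Mmp10* lost its D7 call without LE D7 replicate 2 too (3.64, adjusted p = 0.057). The fall of *Mmp3* in the hub was lost without any 1 of the 4 D7 arrays of hub and control, with values from -2.16 to -1.87.

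*Mmp2*, the gelatinase whose proenzyme is handled by MMP14 and TIMP2, went against the MMPs that were called higher. It was at 7.71 and 7.74 in LE at D4, 9.64 and 9.64 in the hub and 9.89 and 9.79 in control, and at D7 at 6.87 and 7.29, 8.55 and 8.47, and 8.55 and 8.62. The LE arrays stood apart below the others on both days, with differences from control of -2.12 ± 0.13 and -1.51 ± 0.13 (adjusted p = 2.1e-05 and 0.00014) and from the hub of -1.91 ± 0.13 and -1.43 ± 0.13 (adjusted p = 0.00015 and 0.0014), all of which held without any 1 array. *Mmp14*, which encodes the membrane protease that needs TIMP2 to activate pro-MMP2, was at 9.21 and 9.16 in LE at D4 and 8.74 and 9.05 in control, and was not called. It was named here after its values were seen, because of its place between *Timp2* and *Mmp2*.

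ADAM sheddases free growth factors and cytokines from the cell surface, and TIMP1 or TIMP3 can inhibit several of them. Of the 9, 4 were called higher in LE against control at D4 and 3 at D7, with none called lower. The medians were 0.36 and 0.15. The called genes were 44.4% and 33.3% of the list, against 14.1% and 14.6% of all genes. *Adam15* went the other way at D4, at -0.67 ± 0.20 with all LE arrays below control, and was not called (adjusted p = 0.055). *Adam17* differed by 0.11 and 0.15 and was not called (adjusted p = 0.71 and 0.55). Both were named after their values were seen. *Adam12* differed by 1.08 ± 0.18 and 1.59 ± 0.18 (adjusted p = 0.0037 and 0.00057), from a control signal below the array median. *Adam10* differed by 0.94 ± 0.14 and 0.93 ± 0.14 (adjusted p = 0.0021 and 0.0026), and *Adam8* by 0.63 ± 0.16 and 1.22 ± 0.16 (adjusted p = 0.024 and 0.00099), the D4 call of *Adam8* being lost without LE D4 replicate 1 (0.54) or control D4 replicate 2 (0.52). *Adam9* was called at D4 only (0.81 ± 0.24, adjusted p = 0.048), and of the 12 fits without 1 array it was called only in that without LE D4 replicate 1.

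Of 18 listed ADAMTS proteases 14 were measured, with 2 higher and 0 lower in LE at D4, 1 higher and 1 lower at D7, and medians of 0.07 and 0.03. On each day this is 14.3% of the list, close to the 14.1% and 14.6% of all genes called. *Adamts1*, which cuts versican and aggrecan, differed by 1.31 ± 0.32 and 1.46 ± 0.32 (adjusted p = 0.024 and 0.015), and *Adamts5*, an aggrecanase that TIMP3 inhibits, by 0.63 ± 0.13 at D4 (adjusted p = 0.012). *Adamts9* differed by -1.95 ± 0.39 at D7 (adjusted p = 0.0089). The D4 calls of both rising genes were lost without LE D4 replicate 2 (1.04 and 0.56) or control D4 replicate 2 (0.96 and 0.55), the D7 call of *Adamts1* without LE D7 replicate 1 (1.24) or control D7 replicate 1 (1.27), and that of *Adamts9* without LE D7 replicate 2 (-1.57) or control D7 replicate 1 (-1.69).

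**Figure D4:**
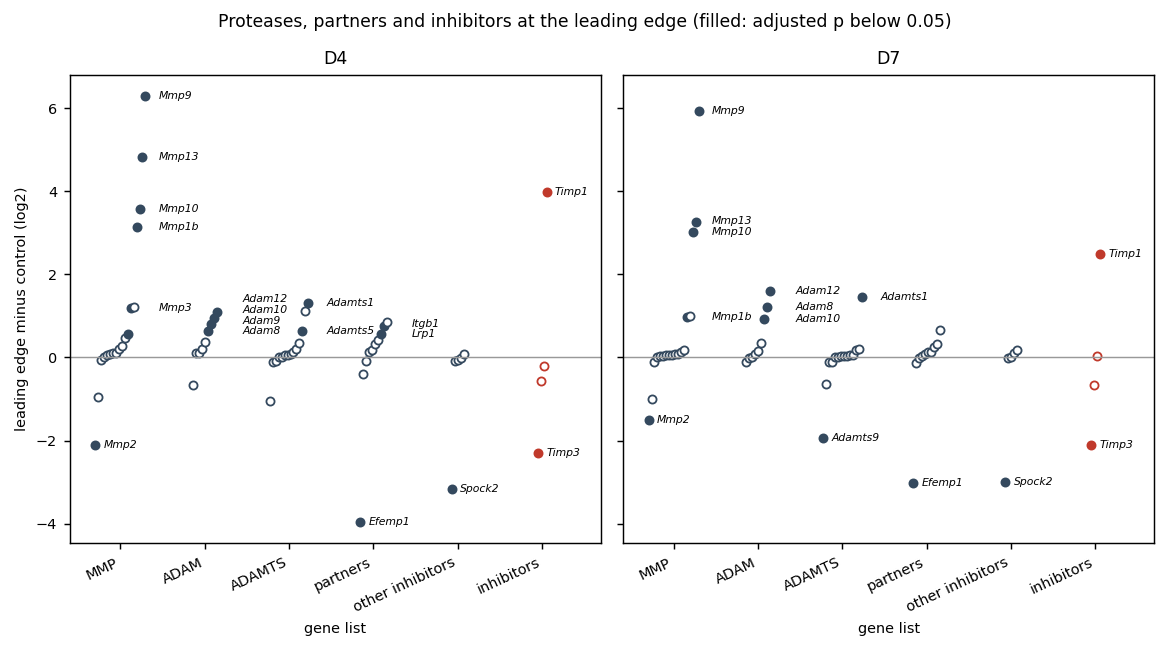
Difference between leading edge and control on the log2 scale (vertical axis) at D4 and D7 for each measured gene of the MMP, ADAM and ADAMTS lists, the partners of TIMPs and RECK, the list of other metalloproteinase inhibitors and testicans, and the 4 inhibitors (red). Filled points passed an adjusted p of 0.05 and the named ones are labelled: Mmp9 is the highest on both days, at 6.30 and 5.94, and Efemp1 the lowest, at -3.95 and -3.03.

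Among 12 gene symbols listed as partners or receptors of TIMPs or of RECK, 10 were measured. The list holds *Adgra2* under its older name *Gpr124* as well. At D4, 2 rose in LE and 1 fell, with a median of 0.25, and at D7 1 fell and the other 9 did not pass, with a median of 0.11. These are 30% and 10% of the measured genes of the list, against 14.1% and 14.6% of all genes. The one that fell was *Efemp1*, which encodes fibulin-3, a matrix protein that binds TIMP3. Its level was 4.17 and 4.60 in LE at D4, 6.63 and 8.09 in the hub and 7.79 and 8.88 in control, and 3.69 and 3.70, 5.50 and 6.00, and 6.84 and 6.61 at D7. LE lay below hub and control on both days, with differences from control of -3.95 ± 0.45 and -3.03 ± 0.45 (adjusted p = 0.00045 and 0.0022), and the LE arrays were below the array median, so the size of the fall is poorly measured. *Itgb1*, the β1-integrin chain that receives TIMP2 and CD63-TIMP1 signals, was 0.75 ± 0.12 higher at D4 (adjusted p = 0.0031). *Lrp1*, an endocytic receptor that clears TIMP3 and other TIMPs, was 0.55 ± 0.15 higher at D4 (adjusted p = 0.033), which was lost without LE D4 replicate 1 (0.33), either control D4 array (0.50 and 0.60) or either LE D7 array (adjusted p = 0.051).

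Of 6 genes listed as other metalloproteinase inhibitors and their testican relatives 5 were measured. *Spock2* fell in LE at D4 and D7 while the other 4 did not pass, with medians of -0.06 and 0.00. Of all genes, 14.1% were called in LE against control at D4 and 14.6% at D7. *Spock2* encodes testican-2, a matrix proteoglycan that, unlike its relatives, is known for lifting the inhibition of membrane-type MMPs and not for inhibiting them. It was at 6.28 and 6.07 in LE at D4 against 9.28 and 9.40 in control, with 7.07 and 8.13 in the hub. The 3 regions did not overlap at D4, nor at D7, where LE was at 4.42 and 5.38, the hub at 6.82 and 6.03 and control at 7.84 and 7.97. The differences of LE from control were -3.17 ± 0.38 and -3.00 ± 0.38 (adjusted p = 0.00061 and 0.00097). The synapsin genes that enclose *Timp1*, *Timp3* and *Timp4* gave 0 calls by limma out of 3 in any of the 6 comparisons. Only *Syn3*, in LE against hub at D7 (0.39 ± 0.15), had an unadjusted p under 0.05, met there by 15.8% of all genes. Differences of the synapsin genes in LE against control lay between 0.10 and 0.54 at D4 and between -0.35 and 0.24 at D7.

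The genes whose pattern over the 12 arrays was most like that of *Timp3*, after subtracting the mean of each day, were *Entpd2*, *Per1*, *Ahnak2*, *Slc38a2* and *Egr1*, with Pearson correlations from 0.978 to 0.984. Their own differences in LE against control ran from -1.86 to -0.54 at D4. Those most like *Timp1* were *Aplp2*, *Peak1*, *Fblim1*, *Plekhb2* and *Tbc1d2*, with correlations from 0.962 to 0.977 and differences from 0.89 to 3.98 at D4. Among the members themselves the correlation was -0.862 between *Timp1* and *Timp3* and 0.824 between *Timp2* and *Timp3*. The 12 arrays share 6 groups, so these values describe the pattern of the groups and have no test.

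The sorted cells carried the markers of their gate. *Itga6*, the antigen used for sorting, was between 10.11 and 11.72, and *Cd34* was below the median of the array on all 12 arrays. *Itga6* was 0.42 ± 0.11 higher in LE at D4 (adjusted p = 0.033) and the other 5 basal markers, *Krt5* and *Krt14* among them, were not called in any comparison. In a sorted pool, fewer cells of a type and less RNA per cell cannot be told apart. Marker lists of other cells moved with the regions as follows, and their part in the differences of *Timp1* and *Timp3* was not tested. Their counts of called genes in LE against control stand beside 14.1% of all genes at D4 and 14.6% at D7.

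Among hair follicle markers, *Krt15* fell in LE, with differences from control of -2.48 ± 0.39 at D4 and -1.88 ± 0.39 at D7 (adjusted p = 0.0026 and 0.011), and of the 6 bulge and outer root sheath genes 3 were lower at D4 and 1 at D7. The list did not move one way, since *Lgr5* and *Cd34* differed by 1.03 ± 0.44 and 0.57 ± 0.20 in LE at D4, with all LE arrays above the control arrays, and were not called (adjusted p = 0.18 and 0.087). The mean level of that list was below 7.12 on both LE arrays at D4 against 7.14 and 7.12 in control, and 6.12 and 6.17 against 6.88 and 6.53 at D7. Of the 5 infundibulum and isthmus genes 0 were called at D4 and 2 (*Lgr6* and *Plet1*) were lower in LE at D7, where the list's mean was 7.34 and 7.34 in LE and at most 8.10 in control. Of the 6 suprabasal genes *Krt1* and *Krt10* were lower in LE at D4 and none was called at D7, while *Ivl* differed by 0.72 ± 0.24 at D4, the other way, and was not called (adjusted p = 0.080).

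Of 8 fibroblast markers 7 were measured, with *Thy1* called lower in LE at D4 and D7 and *Dcn* at D7. The list's mean was 5.56 and 5.21 in LE against 5.81 and 5.84 in control at D4 and 3.96 and 4.14 against 4.68 and 4.71 at D7. The largest differences were those of *Thy1* (-1.39 and -1.88) and *Dcn* (-1.59 and -2.59). The list did not move one way. *Lum* differed by 0.14 and 0.21, *Pdgfra* by 0.07 and 0.11 and *Col1a1* by 0.07 and -0.10. *Col1a2* differed by -0.26 and -0.19 and *Col3a1* by -0.14 and -0.11. None of these was called. *Col1a2*, *Col3a1*, *Pdgfra* and *Lum* were below the array median on all 12 arrays. Of the 4 pericyte and smooth muscle markers measured, *Acta2* rose in LE, with differences of 2.11 ± 0.32 and 2.51 ± 0.32 on the successive days, and *Rgs5* and *Myh11* were below the array median on all 12 arrays. Of the 6 endothelial markers 1 (*Tie1*) was higher in LE at D4 and 3 (*Tie1*, *Cdh5* and *Cldn5*) at D7. Of all genes, 14.1% were called in that comparison at D4 and 14.6% at D7. The endothelial list means were 5.48 and 5.37 in LE against 4.31 and 4.48 in control at D7. Of the 8 immune markers 0 were called by limma in any comparison. In LE against control, 1 was lower at an unadjusted p under 0.05 on each day, which 25.6% of all genes met at D4 and 27.1% at D7. *Ptprc*, the pan-leukocyte gene, was below the array median on all 12 arrays.

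The melanocyte list stood high on 2 arrays. Its mean was 7.04 on control D4 replicate 1 against 5.46 on replicate 2, and 7.95 on hub D4 replicate 2 against 5.41 on replicate 1, and lay between 5.10 and 5.23 in LE at D4. Of its 6 genes *Mitf* was the one called, lower in LE than in control at D4 (-1.06 ± 0.23, adjusted p = 0.012) and at D7 (-0.89 ± 0.23, adjusted p = 0.027). The others differed by -1.98 to -0.20 at D4. At D7 *Tyrp1*, *Mlana* and *Tyr* differed by 0.04, 0.05 and -0.01, *Dct* by -0.26 and *Pmel* by -0.65. Of all genes, 14.1% were called in LE against control at D4 and 14.6% at D7. Without control D4 replicate 1, LE and control differed at D4 by -2.48 in *Timp3* (adjusted p = 0.0026) and by 4.23 in *Timp1* (adjusted p = 0.0033). Without hub D4 replicate 2, hub and control differed by -1.64 in *Timp3* (adjusted p = 0.069) and LE and hub by 3.32 in *Timp1* (adjusted p = 0.042).

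**Figure D5:**
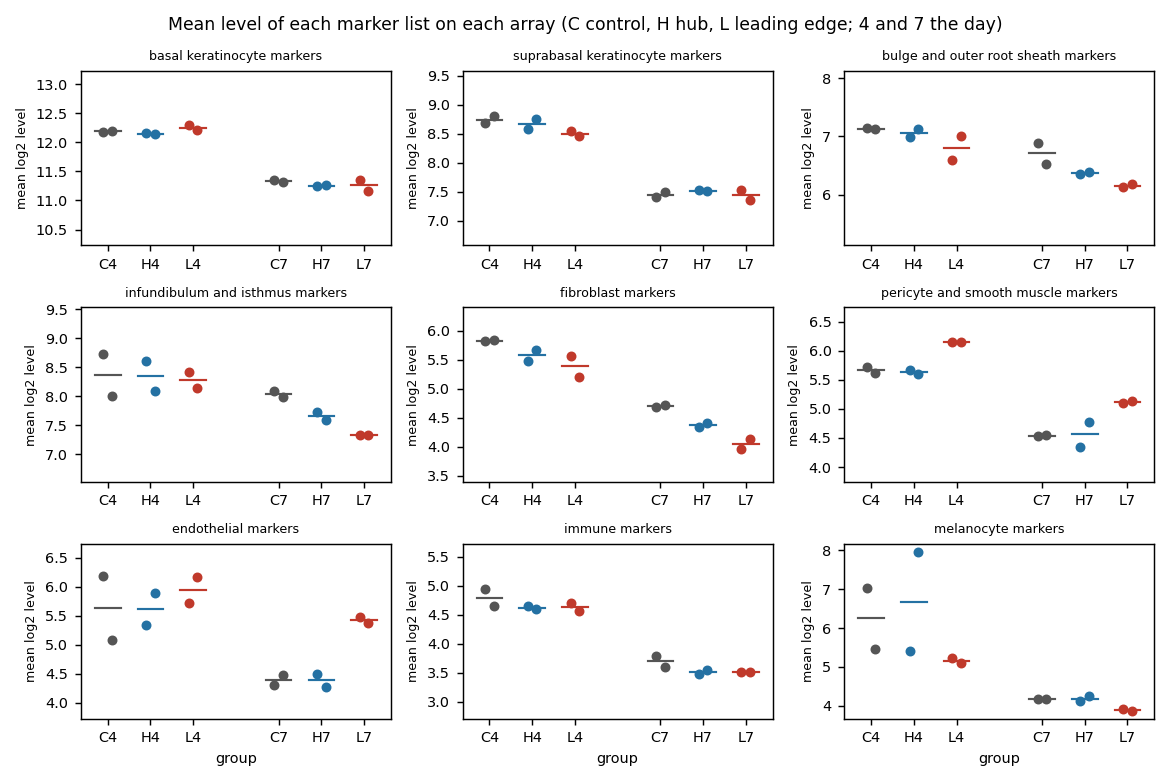
Mean log2 level (vertical axis) of each marker list on each array, with a bar at the group mean, for control (C), hub (H) and leading edge (L) at D4 and D7. Basal markers stay level within a day, whereas melanocyte markers stand high on 1 control array (7.04) and 1 hub array (7.95) at D4.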

How the data were processed

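Gene expression was measured on Affymetrix Mouse Genome PM strip arrays, 12 in all, 2 in each of 6 groups. The authors normalised the scans with RMA and deposited log2 values, and the version of RMA and the summary settings are not given in the sources used here. No scanner files were used. Probe sets were named from the GEO platform annotation. Of 45141 probe sets, 28898 had a single gene, 551 several and 15588 none, and control probe sets (104) were left out. Each of the 17097 genes was represented by its brightest probe set on average.

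Regions were compared with limma 3.58.1 in R 4.3.3 (lmFit and eBayes with the default prior, 6 groups, 6 residual and 3.77 prior degrees of freedom), two-sided, with Benjamini-Hochberg adjustment over all genes and a threshold of 0.05. Standard errors and 95% intervals are those of this fit, and SDs are over the 2 arrays of a group. Arrays carry no read depth. The fold rule used same-numbered arrays and a fold of 2. The procedure was tested on simulated data first.

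Genes of the family and lists of proteases, partners and cell markers were chosen with earlier results of these data known. Named were all members with every probe set, up to 4 called genes of each protease list with the largest change and any called gene going against its list, the 5 genes most like each called member, and *Itga6* and *Cd34*. Marker genes were named by their calls. Motifs were searched in RefSeq promoters on both strands. Alternatives were 3 scalings, the mean of probe sets, probe sets singly, a filter on dim genes, array weights, another prior, fewer arrays in the fit, a replicate block, a test against 2-fold, both fold rules, and leaving out each array. The same alternatives for the protease genes were added after seeing the data.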

Additional observations from a re-analysis of the deposited data

How the results depend on the processing

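Of the 36 values of the 4 members (6 comparisons within a day and 3 between days), 25 kept their side of the threshold in every alternative in which they could be computed, and no called value changed sign. *Reck* was removed by the filter on dim genes, which kept 11253 genes, and has no value there. In the test against a 2-fold change, 1 member (*Timp1*) stayed called in LE against control at D4, 0 at D7 and 0 in LE against hub at D4. In LE against hub at D4 the count was 2, *Timp3* being added, with the mean of all probe sets, with a replicate block and with a 2-fold difference of group means, and in the fits without 1 array it ran from 0 to 2. In LE against hub at D7 it was 1 after subtracting the 75th percentile, with the dim filter, with array weights and with the fold rule (*Timp1* in each), 1 with the arrays of the day only, the arrays of both groups only and the replicate block (*Timp3*), 2 with group means, and from 0 to 1 without 1 array. In hub against control *Timp3* was called, a count of 1, with the replicate block on both days, with either fold rule at D4 and with the arrays of both groups only at D7. In LE against control at D7 the count ran from 1 to 2 without 1 array, and the arrays of both groups only left *Timp1* at an adjusted p of 0.051 but called *Timp2* (adjusted p = 0.032), as the arrays of D7 only also did (adjusted p = 0.014). Among the protease genes and partners in LE against control, a trended and robust prior lost the calls of *Mmp10* on both days (adjusted p = 0.056 and 0.090) and of *Mmp13* at D7 (0.10), and the arrays of D4 only lost those of *Mmp10*, *Adam9*, *Adamts1*, *Adamts5* and *Lrp1* (adjusted p from 0.053 to 0.14). The cause of these moves was not tested.

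No source says whether same-numbered arrays came from the same mice, and they were treated as unpaired. Their deviations from the group means correlated at 0.170 to 0.245 at D4 and at 0.002 to 0.067 at D7. With the number as a replicate block within the day, the counts of members called were 2, 1 and 2 at D4 (LE against control, hub against control, LE against hub) and 2, 1 and 1 at D7. The calls this added were those of *Timp3* in hub against control (adjusted p = 0.024 at D4 and 0.047 at D7) and in LE against hub (0.010 and 0.011). *Reck* and the control level of *Timp1* were near or below the array median, which limits how well the size of their differences is measured.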
